A study of Mus musculus with 4 samples.

Results

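The cytosolic ribosomal protein genes were taken as every symbol in the deposited table that starts with Rpl or Rps followed by a number, together with Rplp0, Rplp1, Rplp2 and Rpsa, with the ribosomal S6 kinases (Rps6k) left out. This gave 93 genes of the 24054 symbols listed. By their known roles, 31 encode core proteins of the small subunit, 43 core proteins of the large subunit and 3 proteins of the stalk. A further 9 are paralogs of core genes, 6 carry the suffix ps of a pseudogene, and 1, Rps19bp1, encodes a nucleolar protein that binds Rps19 and is not a subunit. These classes follow symbols and known roles, and in the RefSeq annotation the paralog Rps4l is a transcribed pseudogene while Rpl31-ps12 and Rpl34-ps1 are protein coding. The levels of these genes were compared between 2 soleus muscle samples from mdx mice dosed with mouse cardiosphere-derived cells (mCDCs) and 2 from mdx mice dosed with vehicle.

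All 4 samples came from female mice of the mdx genotype, a mutation of the dystrophin gene in the strain C57BL/10ScSn-DMDmdx/J, so that no unaffected muscle was part of the comparison. Dosing began at 8 weeks of age and was repeated monthly through the femoral vein until the 12-month endpoint. The mCDCs, stromal cells grown from heart tissue, were at passage 5 and came from 1 heart of a C57BL/10ScSn/J mouse, without the mutation, and control mice were given the culture medium alone. RNA of the whole muscle was sequenced, and the 2 libraries of each group are labelled only as separate samples, so that p-values measure the spread between these samples.

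A ribosome is built from a small subunit, which reads the messenger RNA, and a large subunit, which joins amino acids. Each core protein is present once per ribosome, apart from the acidic proteins of the stalk, a flexible arm that recruits elongation factors. Most mRNAs for these proteins begin with a C followed by a run of pyrimidines, the terminal oligopyrimidine (TOP) motif, through which mTORC1 and the protein LARP1 control how much of the mRNA is translated. That control acts on translation, which RNA-seq does not measure. Striated muscle also makes Rpl3l, a muscle form of the large subunit protein Rpl3 that takes its place in the ribosome.

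The start sites are shown first because the TOP motif is the sequence these genes are known to share and the rule on names did not use it. A run of at least 6 C or T letters that begins with C was searched on the sense strand within 10 bases of each annotated start in the RefSeq promoters of GRCm38.p6. A promoter was listed for 67 of the 93 genes, some with more than 1 start, and none was listed for Rpl3. Of the 67 promoters of core and stalk genes, 32 held such a run (47.8%), against 18.5% of all 32851 promoters of the same length, 21.3% of 75 promoters of mitochondrial ribosomal protein genes and 35% of 20 promoters of other genes known for the motif. In each window of 30 bases printed here, 5′ to 3′ on the strand of the gene, the capitals mark the run, and the first 6 genes were chosen as examples with a run and the last 3 as examples without one.
Rps6 (chr4:86857353-86857382, minus strand): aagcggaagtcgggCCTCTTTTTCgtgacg
Rps18 (chr17:33955651-33955680, minus strand): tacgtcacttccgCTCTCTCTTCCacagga
Rpl35 (chr2:39005117-39005146, minus strand): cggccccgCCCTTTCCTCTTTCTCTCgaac
Rplp2 (chr7:141447636-141447665, plus strand): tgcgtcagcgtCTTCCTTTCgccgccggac
Rpl15 (chr14:18270972-18271001, minus strand): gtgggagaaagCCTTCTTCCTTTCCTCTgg
Rpl14 (chr9:120571502-120571531, plus strand): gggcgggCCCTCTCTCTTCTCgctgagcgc
Rpsa (chr9:120127751-120127780, plus strand): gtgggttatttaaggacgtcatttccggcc
Rps13 (chr7:116334176-116334205, minus strand): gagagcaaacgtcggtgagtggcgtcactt
Rpl3l (chr17:24727811-24727840, plus strand): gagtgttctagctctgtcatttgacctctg
The absence of a run in a window says only that these letters were not found near the annotated start. The longest of the printed runs, in Rpl35, had 18 letters, and that of Rps6 had 10.

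The deposited values are RSEM expected counts, which divide a read that could come from several transcripts among them and so need not be whole. The library totals were 27187425 and 22481391 for the mCDC muscles (replicates 1 and 2) and 25927227 and 26321898 for the vehicle muscles. Of the 93 genes, 66 had whole numbers in all 4 libraries, 2 (Rpl10l and Rps27rt) had 0 in all, and 89 were among the 13652 genes that passed edgeR's filter on low counts. Rpl26, Rpl39l, Rpl10l and Rps27rt did not pass. The muscle fibre markers were all present, with 11 of 11 tested and none called.

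Cytosolic ribosomal protein genes took 2.06% and 2.39% of all counts in mCDC replicates 1 and 2. They took 1.85% and 2.27% in vehicle replicates 1 and 2. The groups overlapped, since vehicle replicate 2 lay above mCDC replicate 1. As CPM, counts divided by library sizes scaled with the trimmed mean of M-values, the genes summed to 22874 ± 2410 CPM (SD, n = 2) in mCDC muscles and 19981 ± 2438 CPM (SD, n = 2) in vehicle muscles, a ratio of 1.14. The two-sided exact permutation test gave p = 0.667, and with 2 libraries against 2 it cannot give less than 0.333, so that it could not have shown a difference of any size. In whole muscle, more cells of a type and more RNA per cell cannot be told apart.

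The genes moved together from library to library. Against its own mean over the 4 libraries, each of the 76 core and stalk genes tested was above in mCDC replicate 2 and below in vehicle replicate 1. In mCDC replicate 1, 25 of the 76 were above their mean, and in vehicle replicate 2, 54 were. The difference between the replicates of a group was as large as that between the groups. The median gene was 0.21 higher on the log2 scale in mCDC replicate 2 than in mCDC replicate 1 and 0.25 higher in vehicle replicate 2 than in vehicle replicate 1, where the median over all 13652 genes was -0.0043 and 0.0081. Of the 4 pairs of libraries across the groups, 3 had the mCDC library higher in nearly every gene. mCDC replicate 2 was higher in 76 of 76 genes than vehicle replicate 1 (median 0.43) and in 76 of 76 than vehicle replicate 2 (median 0.17), and mCDC replicate 1 was higher in 75 of 76 than vehicle replicate 1 (median 0.21). Between mCDC replicate 1 and vehicle replicate 2 the median difference was -0.041, and 19 of the 76 were higher in the mCDC library. mCDC replicate 2, where the genes were highest, was also the library with the fewest counts, and the part of depth in the order of the libraries was not tested.

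**Figure D1:**
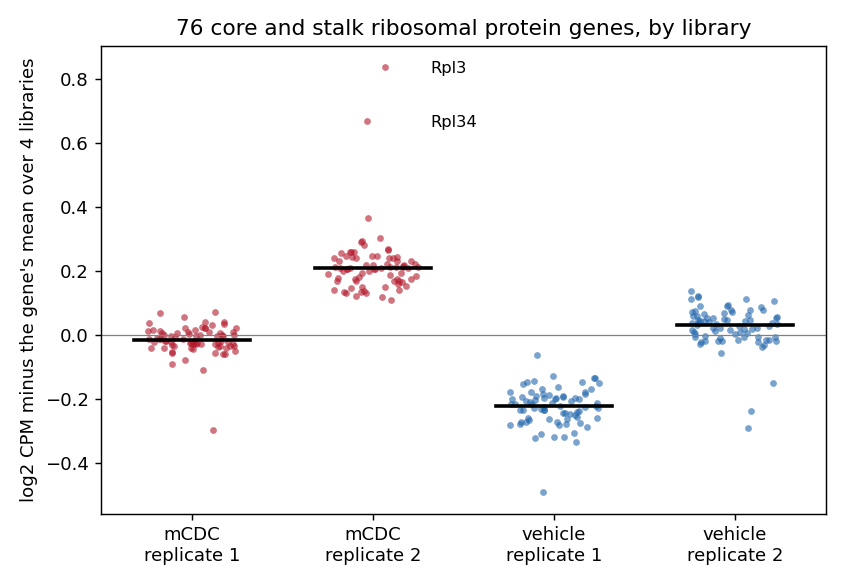
Each point is 1 of 76 core and stalk genes, plotted as log2 CPM minus that gene's mean over the 4 libraries, with a black bar at the median. The medians were 0.21 in mCDC replicate 2, -0.016 in mCDC replicate 1, 0.032 in vehicle replicate 2 and -0.22 in vehicle replicate 1, and Rpl3 and Rpl34 stand above the rest in mCDC replicate 2.

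This order can be set beside that of all genes. Of the 89 tested members, 78 were highest in mCDC replicate 2 and lowest in vehicle replicate 1, as were 11.5% of all genes tested. Both mCDC libraries lay above both vehicle libraries for 24 members, where this held for 19.2% of all genes. Both lay below for 1 member, Rpl14-ps1, where this held for 19.4% of all genes. The 24 were 7 small subunit genes, 12 large subunit genes, 4 paralogs and 1 pseudogene, and since the members moved together the count holds few separate observations.

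In the fit across all genes, 84 of the 89 members had a log2 fold change above 0 for mCDC over vehicle, against 48.4% of all genes tested. All 76 core and stalk genes were among them. The median of the members was 0.19, with quartiles of 0.14 and 0.23, beside a median of -0.0094 over all genes. The direction is shared by genes that moved together over 4 libraries, so that 84 members are not 84 separate observations. Calls were made with edgeR's quasi-likelihood test, where a gene needed more than a 1.5-fold difference and an unadjusted p below 0.05. Only Rpl3 was called higher, where 1.26% of all genes were, and only Rpl14-ps1 was called lower, where 2.74% of all genes were. No gene had an adjusted p under 0.05 (0% of all genes), and the smallest in edgeR's quasi-likelihood test was 0.200 over all genes and 0.567 over the members. At an unadjusted p under 0.05 there were 947 genes, of which 3 were members (Rpl14-ps1, Rpl3 and Rps13), and DESeq2 gave 48 genes and no member an adjusted p under 0.05. Without vehicle replicate 1 the median of the members was 0.079, with 72 of 90 above 0, and without mCDC replicate 2 it was 0.070, with 79 of 90 above 0.

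**Figure D2:**
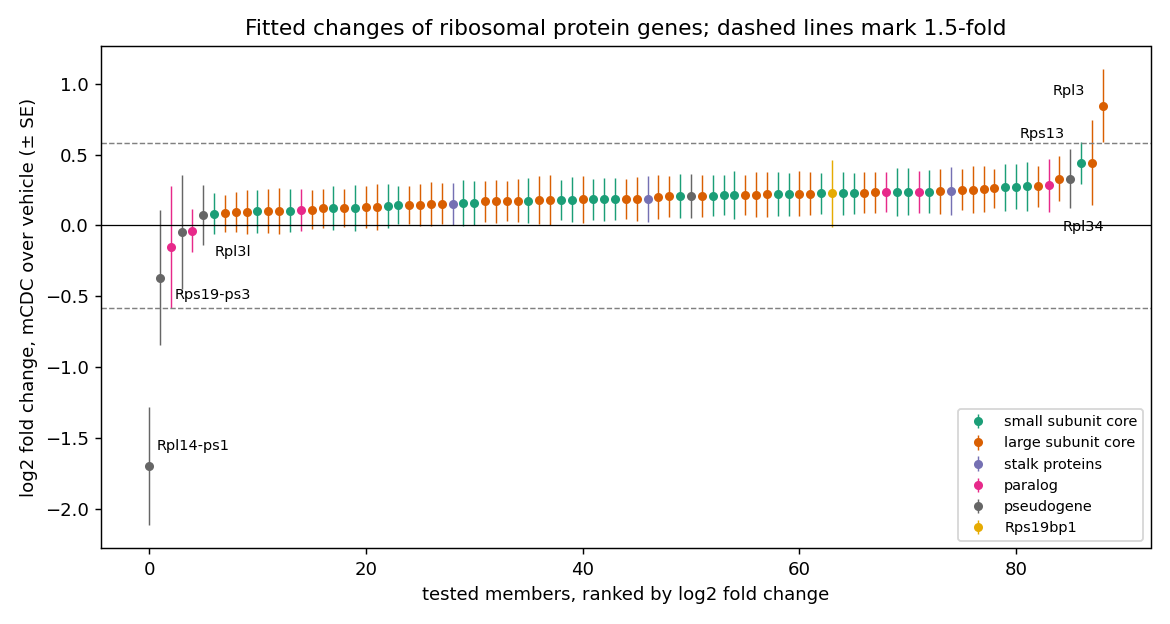
Log2 fold change of mCDC over vehicle for each of the 89 tested members, ranked, with the standard error of the edgeR fit as bars and colours for the class of gene. Most values lie between 0.08 and 0.33, with Rpl3 at 0.85 and Rpl14-ps1 at -1.70 outside the dashed lines at 1.5-fold.

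Among the 31 small subunit genes, none was called, and log2 fold changes ran from 0.08 for Rps24 to 0.44 for Rps13. Rps13 (chr7:116331507-116334190, mm10), a protein of the small subunit body, had 219 and 269 CPM in mCDC replicates 1 and 2. It had 172 and 188 CPM in vehicle replicates 1 and 2. Both mCDC libraries lay above both vehicle libraries, with a log2 fold change of 0.44 (SE 0.15, unadjusted p = 0.0185, adjusted p = 0.683 by edgeR's quasi-likelihood test). Its fold of 1.36 was under the 1.5 needed for a call. The log2 fold change was 0.28 (unadjusted p = 0.193) without mCDC replicate 2 and 0.38 (unadjusted p = 0.0790) without vehicle replicate 1.

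Rps6, the protein that S6 kinase phosphorylates, had 325 and 396 CPM in mCDC muscles against 291 and 333 CPM in vehicle muscles, with a log2 fold change of 0.21 (SE 0.15). Rpsa, which doubles as a laminin receptor, had 665 and 816 CPM against 556 and 673 CPM, a log2 fold change of 0.27 (SE 0.17). In both, vehicle replicate 2 was above mCDC replicate 1.
Rps2, which lies near the entry of the mRNA channel, had 917 and 1013 CPM against 756 and 901 CPM, a log2 fold change of 0.22 (SE 0.16). Rps27a, made as a fusion with ubiquitin, had 194 and 225 CPM against 169 and 193 CPM, a log2 fold change of 0.21 (SE 0.14). The libraries of the groups were separated for both, by less than 20 CPM in Rps2 and less than 1 CPM in Rps27a.

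Of the 43 large subunit genes, 42 were tested, all with a log2 fold change above 0, and Rpl3 was called higher. Rpl3 (chr15:80077781-80083406, mm10) lies close to the centre where peptide bonds are made. It had 122 and 227 CPM in mCDC replicates 1 and 2 and 90.4 and 104 CPM in vehicle replicates 1 and 2. Both mCDC libraries lay above both vehicle libraries, and mCDC replicate 2 stood apart from the other 3. The means were 175 ± 73.9 CPM (SD, n = 2) and 97.2 ± 9.63 CPM (SD, n = 2), a log2 fold change of 0.85 (SE 0.26). edgeR's quasi-likelihood test gave an unadjusted p of 0.0118 and an adjusted p of 0.638. The value rested on mCDC replicate 2. Without that library the log2 fold change was 0.33 (unadjusted p = 0.128) and the call was lost, and without mCDC replicate 1 it was 1.23 (unadjusted p = 1.45e-05, adjusted p = 0.00636). The call was also lost without vehicle replicate 1, at 0.75 (unadjusted p = 0.0760). Over the other alternatives, including DESeq2 at 0.86 (adjusted p = 0.155), the value of Rpl3 ran from 0.78 to 0.95.

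Rpl8, a protein of the same subunit that lies near its catalytic centre, had 456 and 543 CPM against 358 and 437 CPM, a log2 fold change of 0.33 (SE 0.16, adjusted p = 0.725). Rpl18 had 209 and 240.2 CPM against 169.9 and 201 CPM, a log2 fold change of 0.27 (SE 0.15). Rpl15 had 246 and 273 CPM against 203 and 231 CPM, a log2 fold change of 0.26 (SE 0.14). These 3 genes, with Rpl9 at 0.25 and Rpl29 at 0.23, had separated groups and missed the call on both fold and p.
Rpl5 and Rpl11 form a particle with 5S ribosomal RNA that can also bind Mdm2, the ligase that degrades p53. Rpl5 had 361 and 445 CPM against 327 and 364 CPM, and Rpl11 had 262 and 300.3 CPM against 214 and 269 CPM. Both had a log2 fold change of 0.22 with overlapping groups. Rpl4, which lines the exit tunnel for the new peptide, had 688 and 748 CPM against 609.5 and 667 CPM, a log2 fold change of 0.17 (SE 0.14). Rpl10, which joins last and lets the subunits pair, had 277 and 338 CPM against 248 and 287 CPM, a log2 fold change of 0.20 (SE 0.15).

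The stalk genes behaved alike. Rplp0, which anchors the stalk, had 1196 and 1470.25 CPM in mCDC muscles against 1050.4 and 1203 CPM in vehicle muscles. Rplp1 had 509 and 586 CPM against 425 and 535 CPM, and Rplp2 had 289 and 348 CPM against 267 and 305 CPM. Vehicle replicate 2 was above mCDC replicate 1 in all 3, and the log2 fold changes were 0.24 (SE 0.17), 0.19 (SE 0.16) and 0.15 (SE 0.15). Without mCDC replicate 2 they were 0.087, 0.086 and 0.013, and without vehicle replicate 1 they were 0.15, 0.037 and 0.063.

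**Figure D3:**
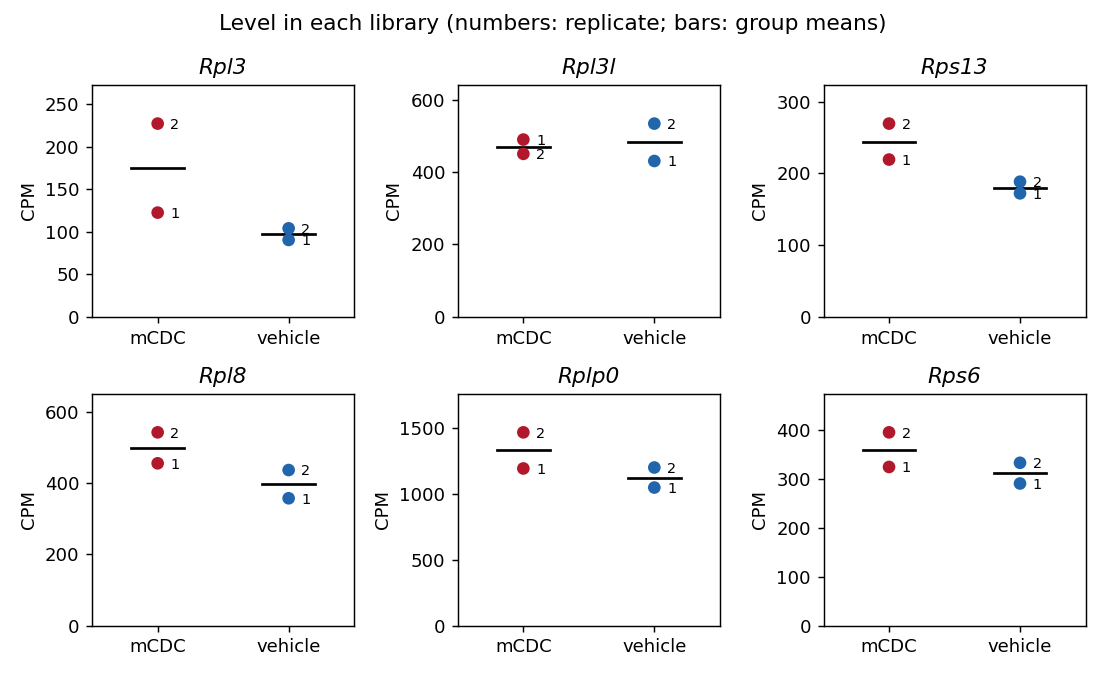
CPM in each library for 6 genes, with the replicate number beside each point, a bar at the group mean and the vertical axis starting at 0. Rpl3, Rps13 and Rpl8 have separated groups, whereas those of Rpl3l, Rplp0 and Rps6 overlap.

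Rpl3l, the muscle paralog of Rpl3 (chr17:24727826-24736143, mm10), was 1 of the 5 tested members with a log2 fold change below 0, all of them paralogs or pseudogenes. It had 489.7 and 450.3 CPM in mCDC replicates 1 and 2 and 431 and 534 CPM in vehicle replicates 1 and 2, a log2 fold change of -0.04 (SE 0.15, adjusted p = 0.969). The groups overlapped, and the value turned to 0.023 without mCDC replicate 2 and to 0.12 without vehicle replicate 2. In mCDC muscles the library with more Rpl3 had less Rpl3l. Per length of transcript, Rpl3l was 3.93 and 1.95 times as abundant as Rpl3 in mCDC replicates 1 and 2, and 4.68 and 5.04 times in vehicle replicates 1 and 2. Rpl3 thus made up 20.3% and 33.9% of the pair in mCDC muscles and 17.6% and 16.5% in vehicle muscles. That ratio rests on 4 libraries, and an exact permutation test of 2 against 2 could not pass 0.333. No 31-base word of either transcript occurred in the other, and the counts of both genes were whole in each library. Their coding sequences were identical at 74.2% of 1209 aligned bases. The first 60 bases from the start codon are printed to show this, with the 13 differing positions in capitals.
Rpl3: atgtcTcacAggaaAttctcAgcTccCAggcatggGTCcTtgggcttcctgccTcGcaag
Rpl3l: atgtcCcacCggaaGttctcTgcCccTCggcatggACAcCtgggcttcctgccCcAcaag

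Among the other paralogs, Rpl22l1 had 9.74 and 10.1 CPM against 7.63 and 8.65 CPM, a log2 fold change of 0.28 (SE 0.19), and its partner Rpl22 had 0.08 (SE 0.13). Per length, Rpl22 was 16.1 and 17.3 times as abundant as Rpl22l1 in mCDC muscles and 20.2 and 18.3 times in vehicle muscles. Rpl7l1, known for a role in making the large subunit, had 43.9 and 48.9 CPM against 39.7 and 39.2 CPM, a log2 fold change of 0.24 (SE 0.14), beside 0.11 (SE 0.14) for Rpl7. Rps27l had 27.4 and 30.8 CPM against both vehicle libraries at 27.0 CPM, and Rps27 had 106 and 121 CPM against 83.1 and 109 CPM. Rpl36al had 93.1 and 110.04 CPM against 79.9 and 92.4 CPM, and Rpl36a had 98.5 and 115 CPM against 89.4 and 106 CPM. Rpl36a was between 1.14 and 1.25 times as abundant as Rpl36al per length in each library, the closest to even of these pairs. Rps4l, at 1.44 and 3.52 CPM against 2.17 and 3.24 CPM, had a log2 fold change of -0.15 (SE 0.43) that ran from -0.91 to 0.38 as single libraries were left out, while Rps4x had 282 and 310.2 CPM against 256 and 280.3 CPM. The germ cell paralogs Rpl10l and Rpl39l were listed at 0 or, for Rpl39l in vehicle replicate 2, at 0.11 CPM. Rps19bp1 had 10.3 and 16.2 CPM against 10.6 and 12.0 CPM, a log2 fold change of 0.23 (SE 0.24) that moved to -0.13 with mCDC replicate 2 left out and to 0.52 with mCDC replicate 1 left out.

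Several values in the set belong to groups of copies, taken here as genes that hold at least 20% of the 31-base words of a member. Rpl14-ps1 (chr7:45324958-45325651, mm10), annotated as a transcribed pseudogene, was the 1 member called lower. It had expected counts of 13.96 and 28.7 in mCDC replicates 1 and 2 and of 84.9 and 73.1 in vehicle replicates 1 and 2, none of them whole. Its log2 fold change was -1.70 (SE 0.42, adjusted p = 0.567). Of the 31-base words in its transcript, 85.4% also occur in other listed genes, above all in Rpl14, to which it was identical at 99.4% of 653 aligned bases. The stretch printed shows how little separates them, with 2 differing positions in capitals over 60 bases from base 459 of the Rpl14 transcript and base 364 of the pseudogene.
Rpl14: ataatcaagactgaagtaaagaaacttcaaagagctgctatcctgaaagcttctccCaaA
Rpl14-ps1: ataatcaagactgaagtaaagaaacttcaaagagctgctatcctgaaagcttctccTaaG
Summed with Rpl14, the pair had 207 and 244 CPM in mCDC muscles and 182 and 206 CPM in vehicle muscles, with a log2 fold change of 0.21 (SE 0.15, adjusted p = 0.769). With copies summed, no member was called lower. The part of the division of shared reads in the lower value of Rpl14-ps1 was not tested beyond this sum.

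Rpl26 was listed with 0 counts in 3 libraries and 63.3 in vehicle replicate 2. Of its 31-base words, 56.1% occur in other listed genes, above all in Gm15772, which had 4732 and 4582 counts in mCDC muscles and 4110 and 5154 in vehicle muscles. Together they had 179 and 209 CPM against 157 and 189.8 CPM, a log2 fold change of 0.16 (SE 0.15). The sum lies within the range of the other large subunit genes.
Rpl34 was split in the same way. It had 8.62 and 16.8 CPM against 9.70 and 8.98 CPM, whereas Rpl34-ps1 had 114 and 126 CPM against 91.0 and 117 CPM. Rpl34 alone had a log2 fold change of 0.44 (SE 0.30), which turned to -0.11 without mCDC replicate 2, and with Rpl34-ps1 it had 0.23 (SE 0.16). Rpl31 and Rpl31-ps12 together had 176 and 202 CPM against 138 and 187 CPM, a log2 fold change of 0.22 (SE 0.17). The remaining genes with that suffix were Rps15a-ps6 at 0.33 (SE 0.21), Rps15a-ps4 at -0.05 (SE 0.40) and Rps19-ps3 at -0.37 (SE 0.48), the latter pair under 2 CPM in each library. As single libraries were left out, Rps15a-ps4 ran from -0.38 to 0.41 and Rps19-ps3 from -0.87 to 0.053. Summed over copies, the 13 groups so formed had log2 fold changes from 0.15 to 0.29.

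**Figure D4:**
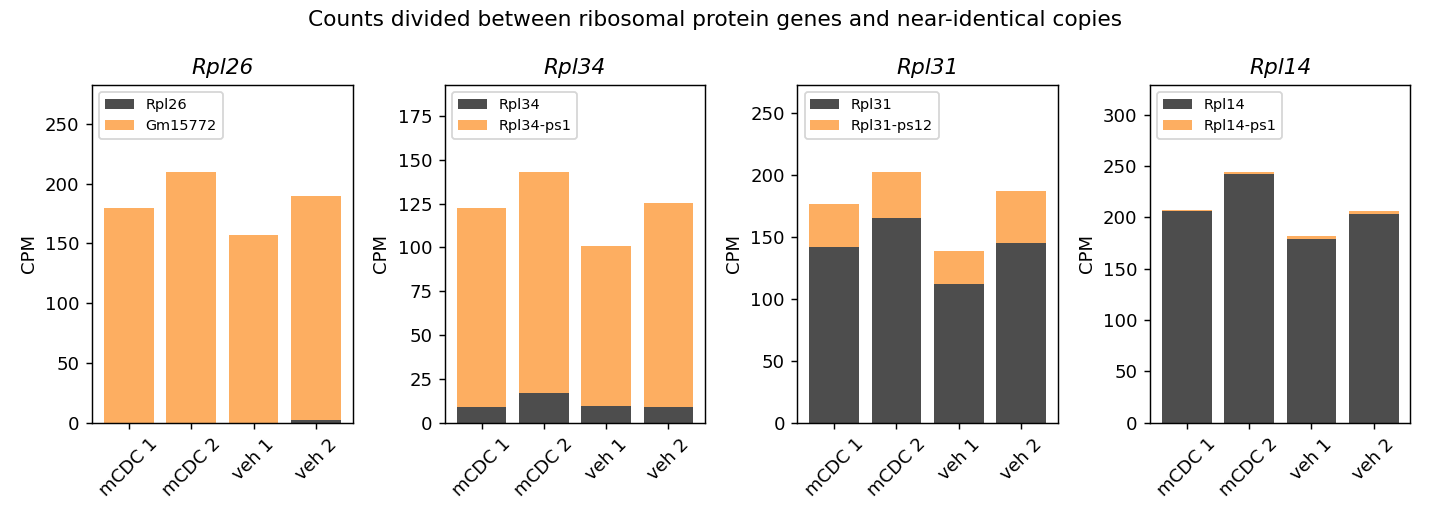
Stacked bars give the CPM in each library that the deposited counts assign to a ribosomal protein gene (dark) and to its copy by shared words (orange), for Rpl26, Rpl34, Rpl31 and Rpl14. Nearly all counts of the Rpl26 and Rpl34 groups stand under the copy, and each stack is highest in mCDC replicate 2 and lowest in vehicle replicate 1.

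The makeup of the set varied little. The large subunit core genes summed to 1.27, 1.26, 1.28 and 1.26 times the CPM of the small subunit core genes in mCDC replicates 1 and 2 and vehicle replicates 1 and 2. Per length, Rplp1 had the highest level (1030 CPM per kb), ahead of Rplp0 (906), Rps2 (899) and Rplp2 (718). The lowest among tested core genes were Rpl34 (23.0), Rps20 (61.9, with an annotated transcript of 3706 bases), Rpl39 (94.8) and Rpl3 (101 CPM per kb). Of the 77 core and stalk genes, 11 had a larger share of the summed core CPM in both mCDC libraries, 20 a smaller one and 46 overlapped. Shares of a sum cannot all move the same way, and whether any gene changed its share was not tested. Over all tested members the counts were 12 larger and 23 smaller, beside 3.31% and 32.9% of all genes when divided by the same sum. That sum was on average higher in mCDC muscles, which by itself lowers the share of a gene without change. The share of Rpl3 was 0.602% and 0.956% in mCDC muscles and 0.515% and 0.499% in vehicle muscles. The share of Rps13 was 1.08% and 1.14% in mCDC muscles and 0.982% and 0.905% in vehicle muscles. Rps24, whose variants are known in Diamond-Blackfan anaemia, had 1.76% and 1.68% against 1.87% and 1.85%, with a log2 fold change of 0.08 (SE 0.15) in its level.

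Other genes of the pathway were read from lists. Fau and Gnb2l1 (Rack1), which encode ribosomal proteins that the name rule does not reach, had log2 fold changes of 0.18 (SE 0.15) and 0.24 (SE 0.14), and neither was called. All 77 mitochondrial ribosomal protein genes had a log2 fold change above 0, beside 48.4% of all genes tested, with a median of 0.16 and none called. Their summed level was 4235 and 4486 CPM in mCDC muscles and 3734 and 4034 CPM in vehicle muscles, so that the groups were separated here. The lowest library was vehicle replicate 1 and the highest mCDC replicate 2, as for the cytosolic genes.

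Of 25 genes outside the ribosome known for the TOP motif, 20 had a log2 fold change above 0, beside 48.4% of all genes tested. Their median was 0.13 and none was called. Among them Eef1a1, which brings aminoacyl-tRNA to the ribosome, had 1256 and 1412 CPM against 1280.3 and 1213 CPM. Eef2, which moves the ribosome along the mRNA, had 2369 and 2610.01 CPM against 2424 and 2538 CPM, a log2 fold change of 0.0049 (SE 0.16). Tpt1 had 2366 and 2478 CPM against 2154 and 2372 CPM, a log2 fold change of 0.10 (SE 0.16). The groups overlapped for all 3, and the lowest library was vehicle replicate 2 for Eef1a1, mCDC replicate 1 for Eef2 and vehicle replicate 1 for Tpt1.

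For ribosome biogenesis and RNA polymerase I, 44 of 45 genes had a log2 fold change above 0, with a median of 0.25, beside 48.4% of all genes tested, and 2 were called higher, beside 1.26% of all genes. Gnl3, the nucleolar GTPase nucleostemin, had 23.6 and 37.1 CPM against 18.9 and 18.4 CPM, a log2 fold change of 0.70 (SE 0.22, adjusted p = 0.642 by edgeR's quasi-likelihood test). Nhp2, a protein of the particles that modify ribosomal RNA, had 22.5 and 37.3 CPM against 17.3 and 21.4 CPM, a log2 fold change of 0.63 (SE 0.25, adjusted p = 0.714). Grwd1, a chaperone of Rpl3, was the 1 gene called among 18 of the 5S particle and assembly list, with 17.6 and 28.0 CPM against 14.4 and 14.99 CPM and a log2 fold change of 0.63 (SE 0.23, adjusted p = 0.688). All 3 called genes were highest in mCDC replicate 2, as Rpl3 was. Myc had 6.70 and 11.9 CPM against 7.17 and 7.97 CPM, with overlapping groups, and Polr1b had 18.5 and 22.6 CPM against 15.7 and 15.9 CPM, without a call.

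The 25 genes of mTORC1 and the S6 kinases had log2 fold changes with a median of 0.0018. Of them 13 were above 0, where 48.4% of all genes were, and 2 were called lower, where 2.74% of all genes were. The highest value in the list, 0.67, was that of Sesn2, another inhibitor of mTORC1, which was not called. Ddit4 (Redd1), an inhibitor of mTORC1 that stress and glucocorticoids induce, had 6.32 and 6.08 CPM against 27.8 and 12.8 CPM, a log2 fold change of -1.71 (SE 0.34, adjusted p = 0.462). Gatsl3 (Castor1), the arginine sensor, had 1.70 and 1.37 CPM against 2.44 and 2.62 CPM, a log2 fold change of -0.71 (SE 0.29, adjusted p = 0.714). The level of Ddit4 was highest in vehicle replicate 1, the library in which most ribosomal protein genes and 26.4% of all genes tested were lowest. In the mCDC libraries Ddit4 was nearly equal, while the median core or stalk gene was 0.21 higher in mCDC replicate 2. A link between Ddit4 and the ribosomal protein genes was not tested. Mtor, Rps6kb1 and Larp1 had log2 fold changes of -0.11 (SE 0.14), -0.19 (SE 0.14) and 0.09 (SE 0.14), and Eif4ebp1, a repressor of translation, had 0.29 (SE 0.14), with none called.

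**Figure D5:**
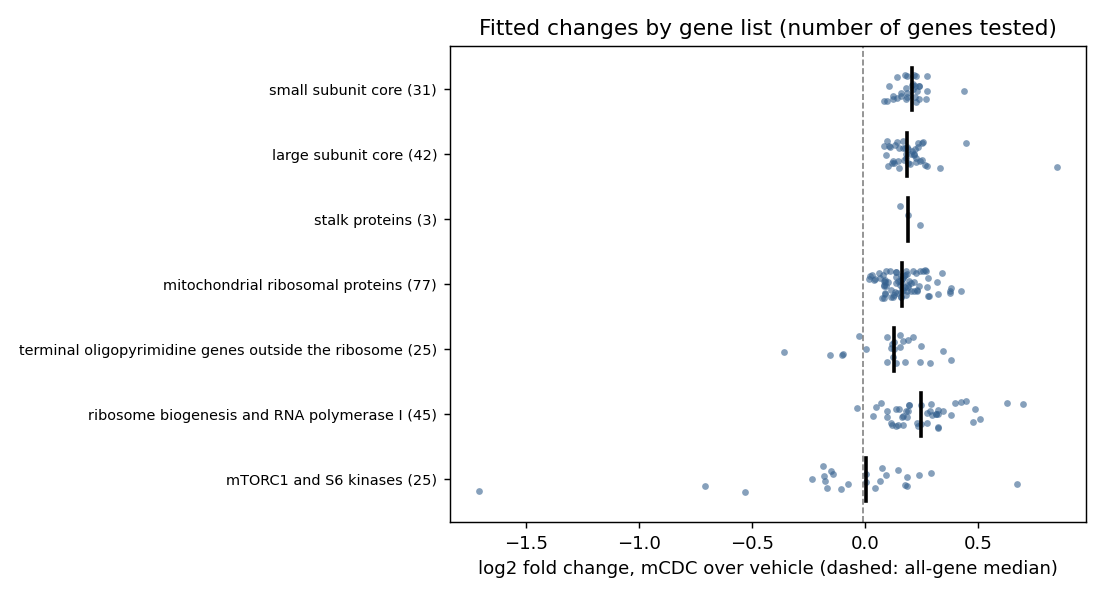
Log2 fold change of mCDC over vehicle for each tested gene of 7 lists, with a black bar at the median of a list and a dashed line at the median of all genes tested, -0.0094. The 3 ribosomal lists have medians of 0.21, 0.19 and 0.19, and the mTORC1 list has one of 0.0018.

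Markers of other cell types were set beside these values. Over all genes tested, 48.4% had a log2 fold change above 0, 1.26% were called higher and 2.74% were called lower. The 7 satellite cell markers summed to 291 and 370.4 CPM in mCDC muscles and 241 and 266 CPM in vehicle muscles, and this sum had the same highest and lowest library as the ribosomal protein genes. Of them 6 were tested, 4 had a log2 fold change above 0 and 1, Pax7, was called higher, with 2.99 and 2.88 CPM against 1.87 and 1.60 CPM, an order of libraries unlike that of the sum. Of 10 macrophage markers, 3 had a log2 fold change above 0, with a median of -0.17. Cd68 was called higher, with 4.13 and 15.4 CPM against 2.71 and 4.15 CPM, and Csf1r was called lower. The macrophage list summed to 55.1 and 59.9 CPM against 45.7 and 78.3 CPM, with overlapping groups. The 6 tendon markers summed to 166 and 218 CPM against 227 and 244 CPM, with Scx called higher and Tnmd, Fmod and Comp called lower. The 6 adipocyte markers summed to 125 CPM in both mCDC libraries and to 144 and 204 CPM in the vehicle libraries, with none called. The sums of the 6 endothelial, 7 fibro-adipogenic and 7 red blood cell markers were highest in vehicle replicate 2, at 222, 578 and 719 CPM, against at most 124, 372 and 454 CPM in the other libraries. All 6, 7 and 7 of these markers had log2 fold changes below 0. Pdgfra of the fibro-adipogenic list was called lower at -0.74 (SE 0.31), and Hba-a2, a haemoglobin chain, was called lower at -1.04 (SE 0.15). The 6 pericyte and smooth muscle markers summed to 296 and 263 CPM against 272 and 297 CPM, 3 of them above 0 (Acta2, Tagln and Myh11), and Rgs5 was called lower at -0.60 (SE 0.16). The lymphocyte markers summed to between 1.95 and 2.88 CPM, with Cd3g and Ms4a1 at 0. The part of these cells in the levels of the ribosomal protein genes was not tested.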

How the data were processed

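RNA-seq of 2 mCDC and 2 vehicle samples of soleus muscle from mdx mice was analysed. The authors mapped 75-bp single-end reads with Bowtie2 2.1.0 and deposited RSEM 1.2.15 expected counts per gene, with no normalization, on mm10 per the labels' processing notes. The labels name a stranded mRNA kit and the methods another kit. Of 24054 symbols, 22750 matched GENCODE M21 under the listed name and 916 under an older synonym.

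Expected counts were rounded and tested in R 4.3.3 with edgeR 4.0.16 (filterByExpr, TMM, the quasi-likelihood F-test with legacy=FALSE), with Benjamini-Hochberg adjustment over all 13652 genes tested. The call needed more than a 1.5-fold difference with an unadjusted p below 0.05. CPM used TMM-scaled library sizes. Log2 CPM took a prior count of 2 in the correlation of deviations and the length and GC trends, and none in the plot of core and stalk genes by library. Standard errors are the absolute log2 fold change over the square root of F. Transcript lengths came from GENCODE M21, and gene coordinates and gene types from RefSeq, both on GRCm38, the sequence of mm10. Copies were genes that held at least 20% of the 31-base words of a member. The total count per library, from 22481391 to 27187425, limits precision for counting error only.

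Named genes were the called members, the 10 with the smallest p, the extremes of change and level, paralog pairs, subunits of known role and a set of pathway genes. Called genes of the pathway lists and several markers are also named, and Rps24 and Gm15772 were chosen after their values were seen. Some genes that this rule names are not reported here. Members and lists were chosen with earlier results of these data known. The procedure was tested on simulated data, in which genes varied independently and changed by more than most members did. That test does not bear on changes as small as those of most members. Alternatives were DESeq2 1.42.0, other scalings and filters, the legacy test, a replicate block, removal of length and GC trends, each library left out, and, chosen after seeing the data, copies summed. The labels' replicate numbers did not pair the samples (correlation of deviations -0.039 over the 2 pairs).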

Additional observations from a re-analysis of the deposited data

How the results depend on the processing

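Leaving out each library in turn moved the number of genes called higher between 112 and 396 and of genes called lower between 237 and 834, and the members called higher between 0 and 2 and lower between 1 and 2. The additional member called lower was Rpl26, which had counts in vehicle replicate 2 alone. The median log2 fold change of the members then ran from 0.070 to 0.32. The difference in their summed share, 0.169 percentage points in favour of mCDC, ran from -0.042, without vehicle replicate 1, to 0.379. Without mCDC replicate 1, Rpl34 was called at 0.85 as well as Rpl3, whereas its value was -0.11 without mCDC replicate 2, and a leave-one-out fit assumes that the lone library varies like the other group. With copies summed, 0 members were called lower, because Rpl14-ps1 was then counted with Rpl14. No other alternative moved a count of calls by over 1.5 times or the median of the members outside 0.181 to 0.207, and Rpl3 and Rpl14-ps1 remained the members called under other scalings, filters, DESeq2 and the legacy test. With the replicate number as a block, 172 genes were called higher and 309 lower and the median of the members was 0.190. The numbers did not pair the samples, with a correlation of deviations of -0.039. Removing trends with length and GC content gave 201 genes higher and 293 lower. With 2 libraries per group, differences of the size seen in most members, near 0.19 with a standard error near 0.15, could not be told from the spread between replicates.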
